A study of Fundulus heteroclitus with 53 samples.

Results

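The genes described here are the splicing factors and RNA-binding proteins measured in the liver of the Atlantic killifish, Fundulus heteroclitus. They were chosen by symbol alone, as every gene whose symbol begins with srsf, sf3a, sf3b, snrp, prpf, u2af or hnrnp, or with lsm or rbm followed directly by a digit. Symbols in which a letter follows rbm (rbms1a, rbms2b, rbms3, rbmx and rbmx2) did not meet it. Of the 34089 genes listed, 95 met this rule. Of these 95, 87 passed the filter on low counts and were among the 13609 genes tested. The 87 comprise 11 SR proteins (srsf), 2 U2AF subunits, 9 SF3A and SF3B subunits, 11 Sm and other small nuclear ribonucleoprotein (snRNP) proteins (snrp), 11 PRPF proteins, 10 LSm proteins, 8 heterogeneous nuclear ribonucleoproteins (hnRNPs) and 25 RBM proteins. The other 8, lsm11, lsm14b, rbm12ba, rbm20, rbm24a, rbm38, rbm44 and rbm46, had at most 13 counts in any fish, and rbm20 had 0. Relatives listed under any symbol outside the rule were not included. The rule was set with earlier results of these data known, and the paper had reported mRNA splicing terms among genes raised by hypoxia in NBH fish. It had also reported RNA binding terms among the genes changed by hypoxia in SC fish, and RNA-binding proteins as a major group in SC severe hypoxia. The counts below are thus no independent test of a splicing response.

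The fish were laboratory-raised F1 juveniles of 6 months from the toxicant-resistant population of New Bedford Harbor (NBH) and the toxicant-sensitive population of Scorton Creek (SC), the reference site. Each population was held for 6 h in severe hypoxia (5% oxygen), in mild hypoxia (10% oxygen) or in normoxic water as control, with 5 fish in each of the 6 groups and 1 RNA library for each liver. All fish of a population came from few wild parents, and control fish stayed on the benchtop while hypoxia fish were in closed chambers. Reads were counted for each gene, and values are given as CPM, counts scaled to a common library total after adjustment by the trimmed mean of M-values (TMM). Differences are given as a log2 fold change ± SE from edgeR's quasi-likelihood test, with a Benjamini-Hochberg adjusted p over all 13609 genes. A gene is called higher or lower where that adjusted p is under 0.05.

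Introns are removed from pre-mRNA by the spliceosome, which assembles stepwise from U1, U2, U4, U5 and U6 snRNPs on each intron. U2AF and SF3A/SF3B bring the U2 snRNP to the 3′ end of the intron, Sm and LSm rings hold the small nuclear RNAs, and PRPF proteins belong to the U4/U6.U5 tri-snRNP and the remodelling steps that follow. SR proteins and hnRNPs bind the transcript itself and shift the choice of splice sites, and SR protein genes in vertebrates also regulate their own mRNA through exons that lead to its decay.

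Total counts ran from 4955114 to 23849931 per fish, and NBH severe hypoxia replicate 5 was the smallest library. Depth differed between groups. Median totals were 12755707 for SC control, 7393074 for SC mild and 18906362 for SC severe fish. The NBH medians were 8179471, 16942104 and 17879044. Every SC severe total (17914396 or more) exceeded every SC control (at most 13247842) and SC mild total (at most 15404373). Depth and oxygen level are thus mixed in SC severe comparisons. In NBH fish they are partly mixed too. Totals there were 7220318 to 16469578 in control, 14340624 to 19074355 in mild and 4955114 to 19185385 in severe hypoxia. The part of depth was not tested beyond the refits given below. TMM factors were 0.903 to 1.265 in the 20 hypoxia fish, against 0.765 to 0.992 in the 10 control fish. Some of the 7 marker lists for cells of the liver and its surroundings moved with hypoxia. The summed level of 6 hepatocyte markers had medians of 146000, 119000 and 107000 CPM in NBH control, mild and severe hypoxia and 132000, 104000 and 91400 CPM in the same SC groups. That of 8 stellate cell and fibroblast markers had medians of 129, 39.6 and 32.8 CPM in NBH and 165, 22.8 and 21 CPM in SC. The medians of 3 erythrocyte, 6 endothelium and 4 leukocyte markers were also lower in both hypoxia groups than in control in each population. Those of 3 bile duct markers were 110, 120 and 105 CPM in NBH and 82.2, 89.4 and 84.3 CPM in SC, and those of 3 exocrine pancreas markers 143, 194 and 96.7 CPM in NBH and 204, 202 and 110 CPM in SC. Their part in the results below was not tested. In whole liver, fewer cells of a type and less RNA per cell cannot be told apart.

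Under hypoxia most of the members called were higher than in control. In NBH mild hypoxia 23 of the 87 members were higher than in NBH control and 3 lower (26.4% and 3.45% of the members), against 11% of all tested genes higher and 10% lower. In NBH severe hypoxia 11 were higher and 5 lower (12.6% and 5.75%), against 7.45% and 6.51% of all genes. In SC mild hypoxia 13 were higher than in SC control and 1 lower (14.9% and 1.15%), against 7.25% and 6.36% of all genes. In SC severe hypoxia 26 were higher and 5 lower (29.9% and 5.75%), against 15.2% and 13.5% of all genes.

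The median log2 fold change of the members was 0.14 in NBH mild, 0.20 in NBH severe, 0.15 for SC mild and 0.15 for SC severe hypoxia, against 0.02, 0.04, 0.00 and 0.01 over all genes tested. The split depends on scaling. Without TMM factors the median of all genes moved up by 0.273 to 0.435 in these comparisons, and 41, 50, 37 and 46 members were higher and 2, 1, 0 and 1 lower, in the same order. Without NBH severe hypoxia replicate 5 the numbers were 26 higher and 3 lower in NBH mild, 17 and 5 in NBH severe, 19 and 2 for SC mild and 28 and 6 for SC severe hypoxia. With the total count as a covariate the member medians were 0.15 in NBH mild, 0.10 in NBH severe, 0.20 for SC mild and 0.11 for SC severe hypoxia. Fewer members were then called higher in NBH mild and more in SC mild hypoxia, as given in the last section. Shares of all genes called in these refits are not given here, so their counts do not set the members apart.

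**Figure D1:**
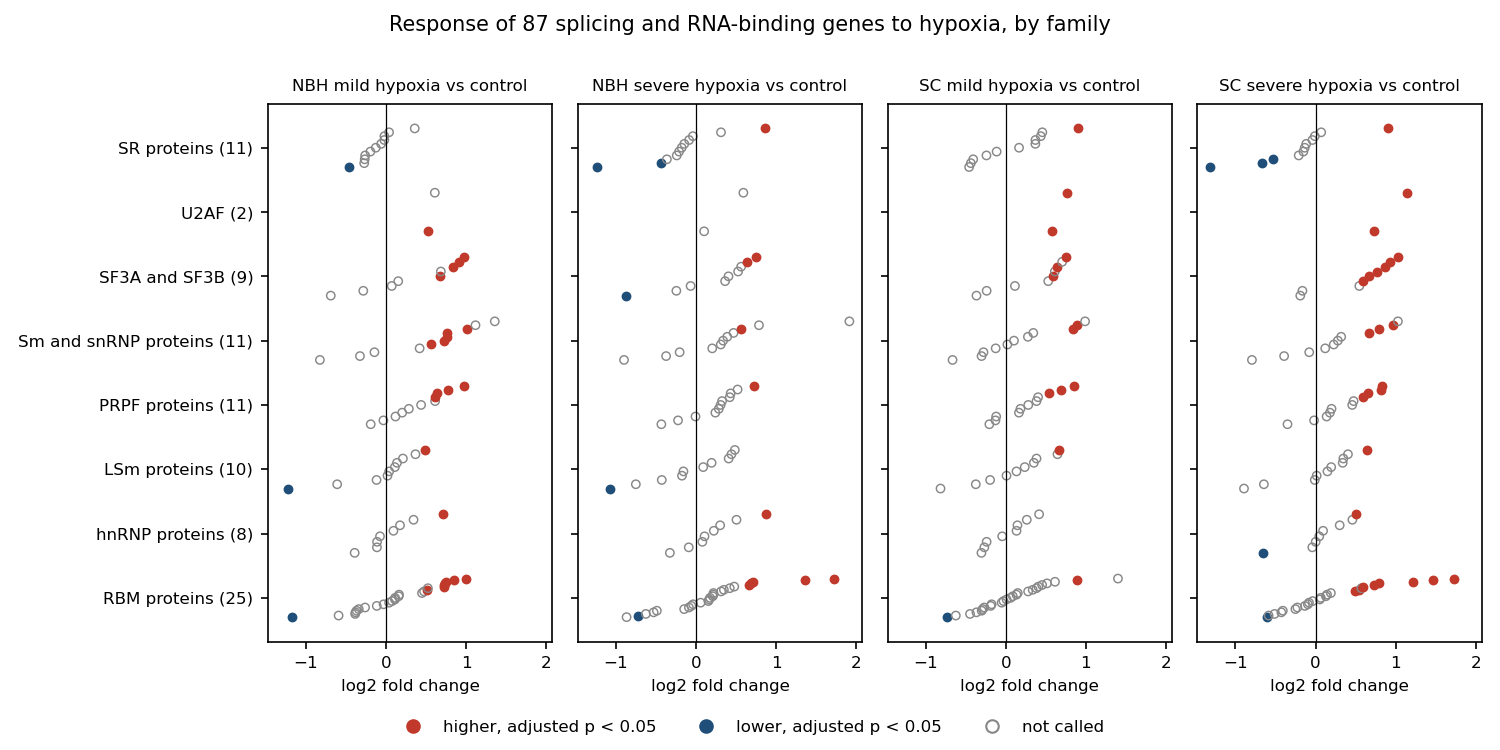
Log2 fold change (x axis, hypoxia over control) of each of the 87 tested genes, in rows by family with the number of tested genes in brackets, for the 4 comparisons with control. Filled points passed the adjusted p of 0.05 (red higher, blue lower) and open points did not. U2AF, SF3A/SF3B and PRPF lie mostly to the right of 0, while 9 of the 11 SR proteins lie to the left in NBH mild, NBH severe and SC severe hypoxia, a number that without TMM factors is 1, 1 and 3 of 11.

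The mild and the severe comparison of a population share its 5 control fish. Of the 87 genes, 43 were called in none of the 4 comparisons and 0 were called in opposite directions. The 5 genes called higher in all 4 were prpf31, sf3a2, sf3a3, snrpa1 and rbm14b, and 7 more were higher in 3 (rbm26, rbm42, rbm8a, sf3b2, snrpb2, srsf3b and u2af1). The log2 fold change was above 0 in all 4 comparisons for 38 genes and below 0 in all 4 for 18. Without TMM factors only 5 genes, lsm6, lsm7, rbm34, rbm47 and snrpe, stayed below 0 in all 4. These tallies over the 4 comparisons were not made for all genes, so they do not set the members apart. With TMM factors 63.2%, 60.9%, 63.2% and 63.2% of the members were above 0 in NBH mild, NBH severe, SC mild and SC severe hypoxia. The shares of all genes tested were 51.3%, 52.5%, 50.2% and 50.5%.

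The U2AF heterodimer reads the 3′ splice site, its large subunit (u2af2a) binding the polypyrimidine tract and its small subunit (u2af1) the AG at the end of the intron. u2af2a was higher in SC fish at both levels of hypoxia, and u2af1 in those and in NBH mild hypoxia. In NBH fish u2af2a stood at 4.55, 5.44, 5.64, 4.17 and 5.24 CPM in control, 7.57, 8.65, 4.42, 7.99 and 9.59 CPM in mild and 9.57, 9.44, 9.50, 5.16 and 3.55 CPM in severe hypoxia. Most NBH hypoxia fish were above the controls, but replicate 3 of mild hypoxia and replicates 4 and 5 of severe hypoxia were within or below them. Neither comparison passed (adjusted p = 0.0672 and 0.0928). Without NBH severe hypoxia replicate 5 the severe comparison passed, with a log2 fold change of 0.75 (adjusted p = 0.0194).

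In SC fish u2af2a stood at 4.71, 6.47, 5.27, 5.77 and 4.44 CPM in control, 9.09, 9.22, 10.4, 11.2 and 5.71 CPM in mild and 11.4, 15.5, 10.1, 9.51 and 12.6 CPM in severe hypoxia. The 5 severe fish were all above the 5 controls, and 1 mild fish, at 5.71 CPM, fell within the control range. The log2 fold change was 1.15 ± 0.23 in severe (adjusted p = 0.000712) and 0.77 ± 0.24 in mild hypoxia (adjusted p = 0.0286). u2af1 was higher in NBH mild (0.52 ± 0.19, adjusted p = 0.0454), SC mild (0.58 ± 0.19, adjusted p = 0.0361) and SC severe hypoxia (0.73 ± 0.18, adjusted p = 0.00414). In NBH severe hypoxia its log2 fold change was 0.10 ± 0.19 (adjusted p = 0.754). The u2af1 call in SC mild hypoxia was lost when any of 7 of the 30 fish was left out, 4 of the SC controls (replicates 1, 3, 4 and 5) and 3 of the SC mild fish (replicates 1, 3 and 4).

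SF3A and SF3B are the parts of the U2 snRNP that hold the branch site, and most of their genes lay above control. The median log2 fold change of the 9 genes was 0.67 in NBH mild, 0.41 in NBH severe, 0.59 for SC mild and 0.66 for SC severe hypoxia. In that order 4, 2, 3 and 6 genes were higher and 0, 1, 0 and 0 lower. Of all genes tested 11%, 7.45%, 7.25% and 15.2% were higher and 10%, 6.51%, 6.36% and 13.5% lower. sf3a2, which binds close to the branch site, was higher in each (0.92 ± 0.21, 0.75 ± 0.22, 0.75 ± 0.21 and 0.93 ± 0.21, adjusted p = 0.00392, 0.0202, 0.0185 and 0.0018).

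sf3a3, another SF3A subunit, on chromosome 13 (31341557 to 31350356), stood at 13.9, 18.3, 13.2, 19.6 and 19.6 CPM in NBH control, 27.99, 32.1, 25.1, 34.04 and 32.1 CPM in NBH mild and 31.5, 27.9, 29.7, 18.98 and 23.8 CPM in NBH severe hypoxia. In SC fish it stood at 17.2, 21.8, 20.2, 23.1 and 15.5 CPM in control, 35.6, 25.2, 33.5, 30.8 and 26.8 CPM in mild and 34.7, 33.3, 32.5, 37.04 and 29.1 CPM in severe hypoxia. Every hypoxia fish was above every control of its population but NBH severe hypoxia replicate 4, at 18.98 CPM. The log2 fold changes were 0.84 ± 0.16 and 0.64 ± 0.16 in NBH mild and severe hypoxia (adjusted p = 0.000659 and 0.0073). They were 0.64 ± 0.15 and 0.77 ± 0.15 in SC mild and severe hypoxia (adjusted p = 0.00674 and 0.00064).

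Among SF3B subunits, sf3b2 was higher in SC severe hypoxia, at 30.1, 34.1, 27.97, 25.4 and 22.2 CPM against 13.2, 18.1, 16.3, 16.5 and 12.3 CPM in SC control, with no overlap (0.87 ± 0.14, adjusted p = 6.54e-05). sf3b2 was also higher in NBH mild (0.67 ± 0.14) and SC mild hypoxia (0.59 ± 0.14), while NBH severe hypoxia gave 0.41 ± 0.14 (adjusted p = 0.0526), with all 5 severe fish above all 5 controls. sf3b1, the subunit that clasps the branch site adenosine, was called in SC severe hypoxia and in none of the other 3 (0.66 ± 0.18, adjusted p = 0.00833), as was sf3b3 (1.03 ± 0.25, adjusted p = 0.00356). The small subunits sf3b5 and sf3b6 had log2 fold changes below 0 in all 4 comparisons, though without TMM factors sf3b6 was above 0 in all 4 and sf3b5 in SC severe hypoxia. sf3b5 stood at 23.1, 19.5, 15.1, 25.6 and 19.5 CPM in NBH severe hypoxia, against 38.5, 37.7, 41.9, 34.01 and 36.8 CPM in NBH control, with no overlap and a log2 fold change of -0.88 ± 0.26 (adjusted p = 0.0228). That call was lost without TMM factors and when replicate 3 of either NBH group was left out. sf3b6, the family's member with the highest CPM, gave log2 fold changes of -0.28, -0.24, -0.24 and -0.16 in NBH mild, NBH severe, SC mild and SC severe hypoxia, none of them called.

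The snrp genes encode the Sm ring and the proteins particular to U1 and U2 snRNPs. The U2 proteins snrpa1 and snrpb2 were higher. snrpa1 stood at 10.4, 14.04, 9.01, 11.4 and 11.4 CPM in NBH mild hypoxia and 10.3, 9.97, 9.95, 12.9 and 10.1 CPM in SC severe hypoxia, against 4.55, 5.26, 5.05, 4.81 and 8.13 CPM in NBH control and 3.22, 6.76, 5.18, 5.95 and 6.13 CPM in SC control. Neither pair of groups overlapped. The log2 fold changes of snrpa1 were 1.0 ± 0.18, 0.56 ± 0.18, 0.88 ± 0.18 and 0.97 ± 0.18 in NBH mild, NBH severe, SC mild and SC severe hypoxia (adjusted p = 0.000497, 0.0392, 0.00188 and 0.000281). snrpb2 gave 0.76 ± 0.19 in NBH mild, 0.83 ± 0.19 for SC mild and 0.80 ± 0.19 for SC severe hypoxia, all called. It gave 0.39 ± 0.19 in NBH severe hypoxia (adjusted p = 0.168).

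The Sm ring genes did not move as one. snrpd2 was higher in NBH mild (0.76 ± 0.16, adjusted p = 0.00207) and SC severe hypoxia (0.66 ± 0.16, adjusted p = 0.00316), and snrpb (0.72 ± 0.18) and snrpg (0.56 ± 0.20) were higher in NBH mild hypoxia. snrpd1 was called in none, with log2 fold changes between 0.10 and 0.42. snrpe, the family's member with the highest CPM, stood at 28.01, 16.97, 16.4, 47.6 and 40.4 CPM in NBH severe hypoxia, against 49.5, 53.3, 69.8, 34.5 and 70.4 CPM in NBH control. It stood at 26.5, 21.2, 31.5, 33.1 and 61.8 CPM in SC severe hypoxia, against 61.5, 61.6, 73.5, 48.2 and 56.97 CPM in SC control. The groups overlapped in both populations. Its log2 fold changes, -0.83, -0.90, -0.66 and -0.79 in NBH mild, NBH severe, SC mild and SC severe hypoxia, did not pass (adjusted p = 0.0698, 0.064, 0.171 and 0.0649). It passed as lower in NBH mild hypoxia without NBH mild replicate 3, in NBH severe hypoxia without NBH severe replicate 5, and in SC severe hypoxia without SC severe replicate 5. How many refits did not pass is not given here, and without TMM factors snrpe was called lower in no comparison with control.

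PRPF proteins were higher in 4, 1, 3 and 4 of 11 genes in NBH mild, NBH severe, SC mild and SC severe hypoxia, and lower in 0. The shares of all genes were 11%, 7.45%, 7.25% and 15.2% higher and 10%, 6.51%, 6.36% and 13.5% lower. prpf31, which holds the U4/U6 and U5 snRNPs together in the tri-snRNP and lies on chromosome 3 (26949675 to 26960779), was the one called in all 4. Its levels were 8.05, 7.61, 5.64, 7.38 and 11.3 CPM in NBH control, 16.5, 17.9, 11.7, 16.6 and 16.4 CPM in NBH mild and 14.8, 12.8, 12.4, 13.02 and 13.7 CPM in NBH severe hypoxia. In SC fish they were 5.37, 8.49, 7.50, 9.65 and 8.27 CPM in control, 13.4, 10.1, 14.3, 14.02 and 11.2 CPM in mild and 14.6, 12.7, 13.6, 16.4 and 11.9 CPM in severe hypoxia. All 20 hypoxia fish were above all controls of their own population. The log2 fold changes were 0.97 ± 0.17 and 0.73 ± 0.17 in NBH mild and severe hypoxia (adjusted p = 0.000368 and 0.00526). They were 0.68 ± 0.17 and 0.82 ± 0.17 in SC mild and severe hypoxia (adjusted p = 0.00713 and 0.000695). All 4 calls held in each of the 30 refits without 1 fish and in each of 9 other settings.

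prpf8, the scaffold at the catalytic centre, was higher in SC mild hypoxia at 37.1, 35.98, 43.5, 41.4 and 33.5 CPM, against 22.2, 23.4, 29.6, 30.3 and 25.7 CPM in SC control, with no overlap (0.54 ± 0.14, adjusted p = 0.00835). It was also higher in SC severe hypoxia (0.59 ± 0.14, adjusted p = 0.00209). In NBH mild and severe hypoxia its values were 0.28 ± 0.14 and 0.31 ± 0.14 (adjusted p = 0.133 and 0.125). prpf19, the ubiquitin ligase that names the PRP19 complex, was higher in NBH mild hypoxia at 14.5, 17.1, 15.8, 18.5 and 13.8 CPM, against 7.70, 8.52, 9.80, 10.4 and 10.2 CPM in NBH control (0.77 ± 0.19, adjusted p = 0.00481). It was also higher in SC severe hypoxia (0.65 ± 0.18, adjusted p = 0.00923). prpf6, a bridge of the tri-snRNP, was higher in both SC comparisons (0.85 ± 0.25 mild, 0.83 ± 0.24 severe). prpf38a was called in none (-0.43 to -0.19).

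**Figure D2:**
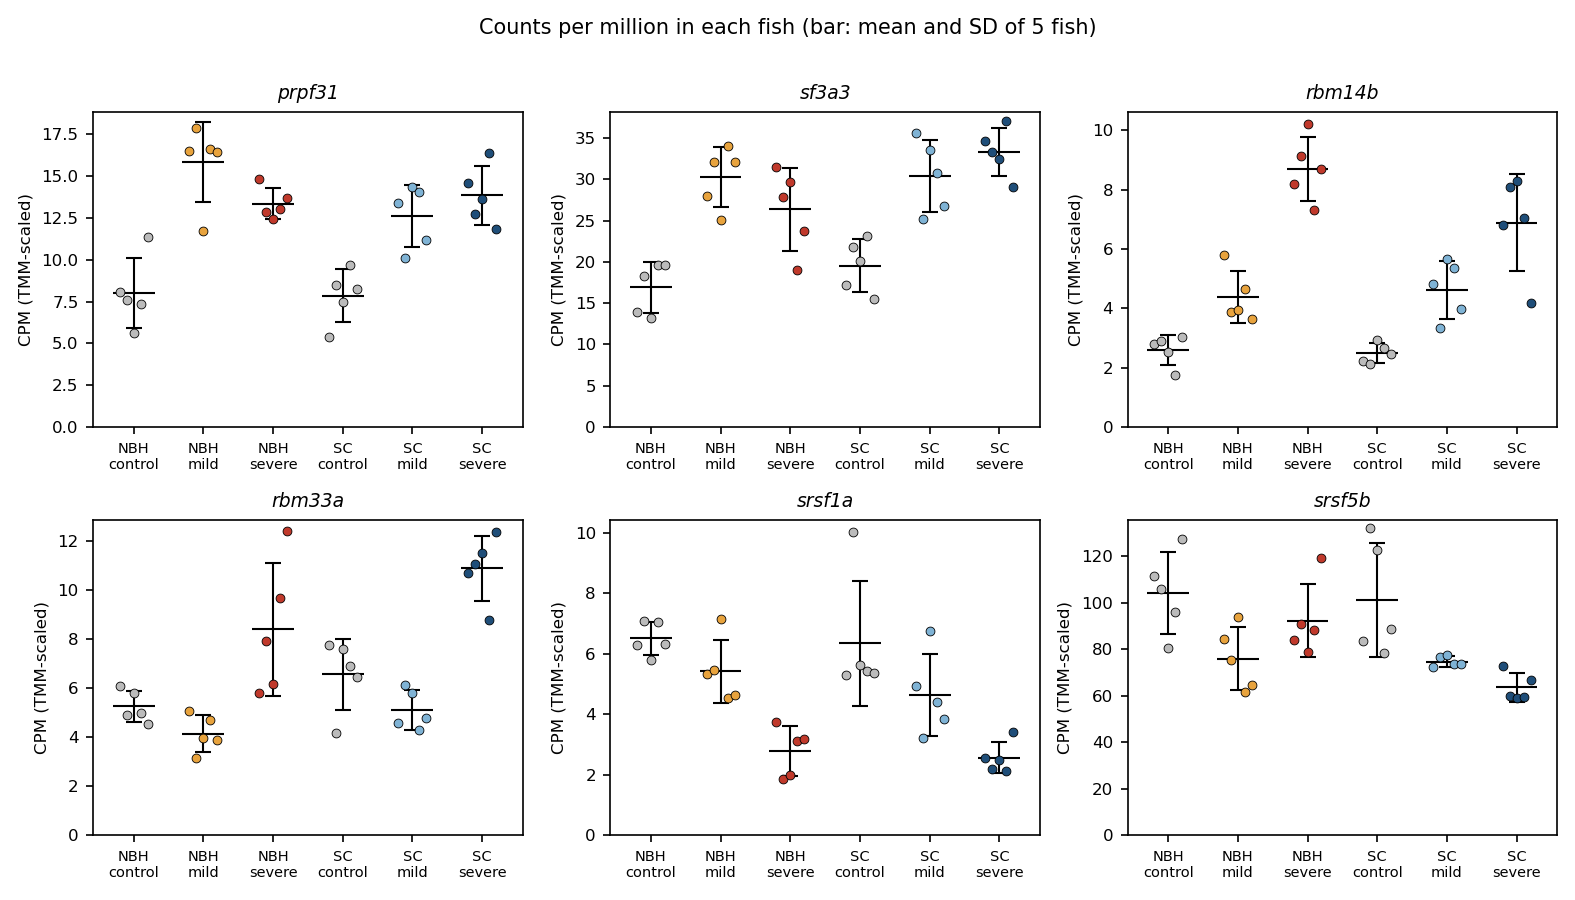
TMM-scaled CPM (y axis, from 0) in each of the 5 fish of every group for prpf31, sf3a3, rbm14b, rbm33a, srsf1a and srsf5b, with the group mean and SD as bars. prpf31 and rbm14b lie above their controls in all hypoxia fish, srsf1a lies below them in all severe hypoxia fish, and all severe fish lie above all mild fish for rbm33a.

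Some LSm proteins, though not every member named lsm, form the ring on U6 snRNA in the nucleus. With lsm1, some form a ring that starts mRNA decay in the cytoplasm. Of the 10 tested genes, 1, 0, 1 and 1 were higher and 1, 1, 0 and 0 lower in NBH mild, NBH severe, SC mild and SC severe hypoxia. Among all genes 11%, 7.45%, 7.25% and 15.2% were higher and 10%, 6.51%, 6.36% and 13.5% lower. With 10 genes, such counts do not set the family apart from all genes. lsm12b was higher in NBH mild (0.48 ± 0.16, adjusted p = 0.0294) and SC severe hypoxia (0.64 ± 0.16, adjusted p = 0.00338), and lsm8, the subunit particular to the U6 ring, was higher in SC mild hypoxia (0.66 ± 0.16, adjusted p = 0.00668).

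lsm6, the family's member with the highest CPM, was lower in NBH fish. It stood at 50.9, 56.9, 59.8, 34.97 and 69.9 CPM in NBH control, 22.7, 17.2, 45.8, 17.5 and 14.1 CPM in mild and 23.1, 16.5, 14.2, 36.5 and 39.7 CPM in severe hypoxia. Of these, 1 mild fish (replicate 3) and 2 severe fish (replicates 4 and 5) reached the control range of 34.97 to 69.9 CPM. The log2 fold change was -1.22 ± 0.35 in NBH mild (adjusted p = 0.0139) and -1.08 ± 0.35 in NBH severe hypoxia (adjusted p = 0.0368). In SC fish it was -0.81 ± 0.34 in mild and -0.89 ± 0.34 in severe hypoxia (adjusted p = 0.113 and 0.0503). The NBH severe call was lost when any of 7 NBH fish was left out (control replicates 1, 2, 3 and 5 and severe replicates 1, 2 and 3), without TMM factors, without the count filter and with the total count as a covariate. lsm1 and lsm4 were called in none of the 4 comparisons, with log2 fold changes of -0.43 to 0.24 and 0.34 to 0.49.

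Most SR proteins had a log2 fold change below 0 in 3 of the 4 comparisons, a sign that turned without TMM factors. The median log2 fold change of the 11 genes was 0.17 in SC mild hypoxia and -0.13, -0.18 and -0.14 in NBH mild, NBH severe and SC severe hypoxia, and these 3 became 0.21, 0.27 and 0.24 without TMM factors. In NBH mild hypoxia srsf5b was lower, in NBH severe hypoxia 1 was higher (srsf3b) and 2 lower (srsf1a and srsf9), and in SC mild hypoxia srsf3b was higher. In SC severe hypoxia 1 was higher (srsf3b) and 3 lower (srsf1a, srsf1b and srsf5b). All genes gave 11%, 7.45%, 7.25% and 15.2% higher and 10%, 6.51%, 6.36% and 13.5% lower in NBH mild, NBH severe, SC mild and SC severe hypoxia.

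srsf1a, a paralog of the founding SR protein SRSF1 (ASF/SF2 in human) on chromosome 18 (28801205 to 28811199), fell in severe hypoxia in both populations. It stood at 6.30, 7.07, 5.79, 7.06 and 6.33 CPM in NBH control, 5.33, 5.46, 7.15, 4.54 and 4.62 CPM in mild and 3.75, 1.85, 1.97, 3.11 and 3.19 CPM in severe hypoxia. In SC fish it stood at 5.29, 10.04, 5.62, 5.43 and 5.36 CPM in control, 4.93, 3.20, 6.76, 4.40 and 3.85 CPM in mild and 2.55, 2.18, 2.49, 2.14 and 3.41 CPM in severe hypoxia. All severe fish were below all controls in each population, and the mild fish overlapped the controls in each.

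The log2 fold change of srsf1a was -1.24 ± 0.23 in NBH severe (adjusted p = 0.000862) and -1.31 ± 0.22 in SC severe hypoxia (adjusted p = 0.000111), against -0.26 ± 0.22 and -0.46 ± 0.22 in NBH and SC mild hypoxia (adjusted p = 0.41 and 0.168). srsf1a was also the only one of the 87 members called lower in severe hypoxia without TMM factors, in each population. Its paralog srsf1b was lower in SC severe hypoxia (-0.53 ± 0.15, adjusted p = 0.0116) and gave -0.36 ± 0.15 in NBH severe hypoxia (adjusted p = 0.113).

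srsf3b, whose human ortholog SRSF3 acts in splicing and mRNA export, was the one SR protein called higher. It stood at 25.8, 25.3, 23.1, 24.9 and 19.7 CPM in NBH severe hypoxia, against 11.4, 11.8, 12.8, 12.7 and 16.4 CPM in NBH control. It stood at 22.2, 20.4, 25.4, 24.7 and 23.4 CPM in SC severe hypoxia, against 8.18, 19.02, 11.4, 14.7 and 8.27 CPM in SC control. Neither pair overlapped. The log2 fold change was 0.87 ± 0.18 in NBH severe, 0.91 ± 0.18 in SC severe and 0.90 ± 0.18 in SC mild hypoxia (adjusted p = 0.00231, 0.000523 and 0.00145). It was 0.36 ± 0.18 in NBH mild hypoxia (adjusted p = 0.153). Its paralog srsf3a gave -0.24 to -0.04 over the 4 comparisons and was called in none.

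srsf5a had the highest CPM of all 87 members and was called in none, with log2 fold changes from -0.02 in NBH mild to 0.37 in SC mild hypoxia. Its paralog srsf5b stood at 72.95, 59.6, 59.02, 59.3 and 66.9 CPM in SC severe hypoxia, against 83.3, 132, 123, 78.3 and 88.7 CPM in SC control, with no overlap (-0.67 ± 0.16, adjusted p = 0.00271). It was also lower in NBH mild hypoxia (-0.46 ± 0.16, adjusted p = 0.0394). Neither of these calls for srsf5b was made without TMM factors. srsf2a and srsf7a were called in none of the 4, with ranges of -0.24 to 0.46 and -0.27 to -0.11.

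Since paralogs are counted in the same fish, their ratio does not depend on the scaling of the library. For 5 paralog pairs, chosen after the values above were seen, the log2 ratio of counts was compared between hypoxia and control with a two-sided exact permutation test (5 fish against 5, smallest possible p 0.00794, adjusted over 20 tests). The ratio srsf1a/srsf1b averaged -3.25 ± 0.357 in NBH severe hypoxia and -2.34 ± 0.145 in NBH control (SD, n = 5 each, exact adjusted p = 0.0176). It averaged -3.26 ± 0.346 in SC severe hypoxia and -2.48 ± 0.186 in SC control (SD, n = 5 each, exact adjusted p = 0.0176). It differed by -0.01 in NBH mild and -0.07 in SC mild hypoxia (adjusted p = 0.944 and 0.735, exact test).

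The ratio srsf3a/srsf3b was lower in NBH severe, SC mild and SC severe hypoxia, with differences from control of -0.88, -1.16 and -1.10 (exact adjusted p = 0.0176 in each). The difference in NBH mild hypoxia was -0.52 (exact adjusted p = 0.113). The ratio srsf5a/srsf5b was higher by 0.48, 0.78 and 0.66 in NBH severe, SC mild and SC severe hypoxia (exact adjusted p = 0.0176 in each) and differed by 0.44 in NBH mild hypoxia (exact adjusted p = 0.0855). With NBH mild hypoxia replicate 3 left out, these last NBH mild differences became -0.70 and 0.59, with unadjusted exact p = 0.0238 and 0.00794. For each of these ratios only 1 refit without 1 fish gave an unadjusted exact p under 0.05. The highest unadjusted exact p among the refits was 0.151 for srsf3a/srsf3b and 0.103 for srsf5a/srsf5b. Neither NBH mild difference is thus called. The ratio rbm25a/rbm25b was lower in NBH mild (-0.69, exact adjusted p = 0.0318) and NBH severe hypoxia (-1.01, exact adjusted p = 0.0176). It differed by -0.35 and -0.31 in SC mild and severe hypoxia (exact adjusted p = 0.396 and 0.401). The ratio lsm14aa/lsm14ab passed in 0 of 4 exact tests after adjustment and in 2 at an unadjusted p under 0.05. Reads that paralogs share in sequence could be dropped or split in counting, so a ratio is that of the reads assigned.

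**Figure D3:**
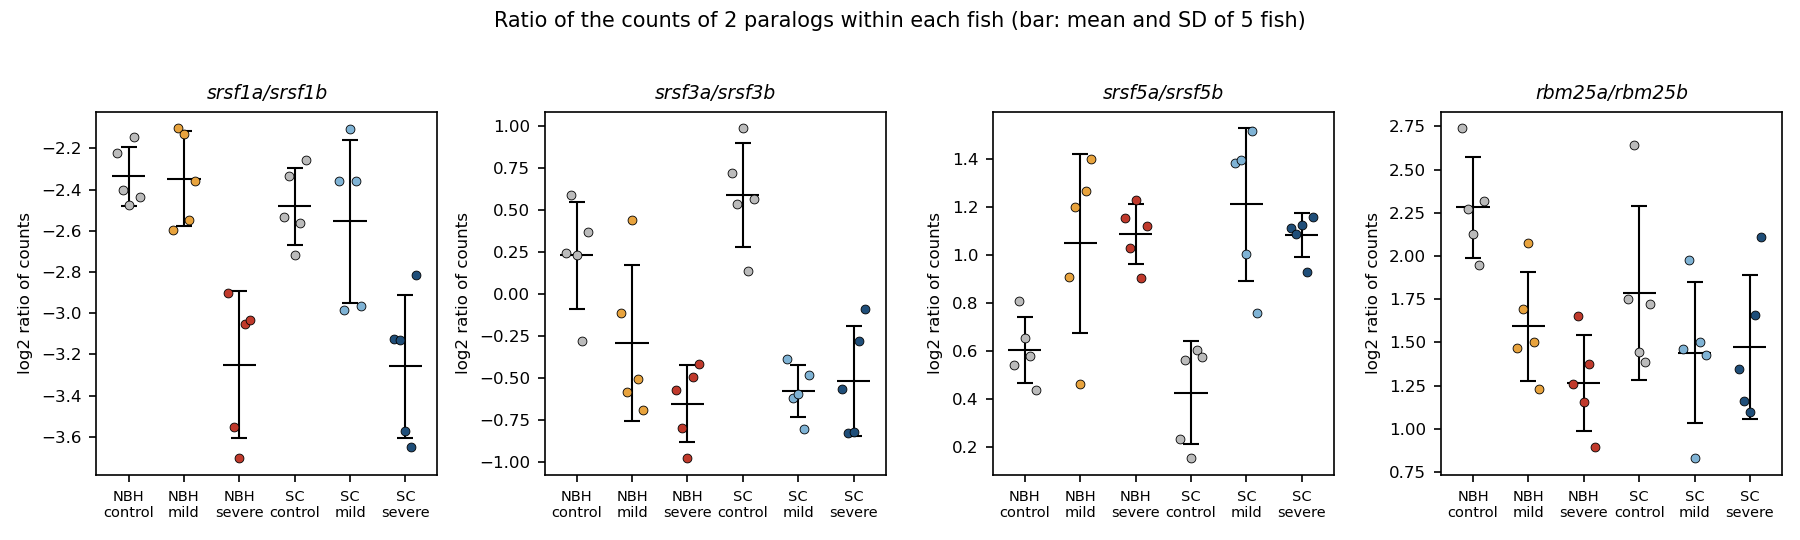
Log2 ratio of the counts of a pair of paralogs in each fish (y axis), with the mean and SD of the 5 fish of each group as bars. The srsf1a/srsf1b ratio averages -3.25 and -3.26 in NBH and SC severe hypoxia, against -2.34 and -2.48 in NBH and SC control, srsf3a/srsf3b lies below its controls in NBH severe, SC mild and SC severe hypoxia, srsf5a/srsf5b lies above them there, and rbm25a/rbm25b is lower in NBH hypoxia.

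The hnRNPs package nascent transcripts and often oppose SR proteins in splice site choice. Of 8 tested genes, 1, 1, 0 and 1 were higher in NBH mild, NBH severe, SC mild and SC severe hypoxia, against 11%, 7.45%, 7.25% and 15.2% of all genes. Only 1 was lower, hnrnpa3 in SC severe hypoxia (-0.66 ± 0.18, adjusted p = 0.00733), where 13.5% of all genes were lower. That call was not made without TMM factors. hnrnpm stood at 16.1, 20.03, 30.7, 16.7 and 14.2 CPM in NBH severe and 18.9, 17.1, 17.1, 18.1 and 16.9 CPM in NBH mild hypoxia, both clear of the 9.69, 11.1, 11.6, 12.7 and 8.83 CPM of NBH control (0.87 ± 0.20 and 0.72 ± 0.20, adjusted p = 0.00532 and 0.0129). In SC fish hnrnpm gave 0.42 ± 0.20 and 0.46 ± 0.20 in mild and severe hypoxia (adjusted p = 0.161 and 0.0796). hnrnpk was called in none (-0.11 to 0.26).

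hnrnpaba, the hnRNP with the highest CPM, was higher in SC severe hypoxia (43.4, 42.8, 37.9, 27.4 and 32.6 CPM) than in SC mild hypoxia (21.8, 20.5, 27.4, 19.2 and 19.1 CPM) and SC control (29.8, 25.97, 23.9, 21.8 and 28.6 CPM). The severe fish overlapped the other groups only at replicate 4, with 27.4 CPM. The log2 fold change was 0.77 ± 0.16 for severe over mild (adjusted p = 0.00465) and 0.50 ± 0.15 for severe over control (adjusted p = 0.0163). In NBH fish it was -0.09 ± 0.16 for severe over control (adjusted p = 0.741).

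The RBM proteins are a class by name, RNA-binding motif proteins with varied roles. Of 25 tested genes, 7, 5, 1 and 8 were higher in NBH mild, NBH severe, SC mild and SC severe hypoxia, and 1 was lower in each. Over all genes tested, 11%, 7.45%, 7.25% and 15.2% were higher and 10%, 6.51%, 6.36% and 13.5% lower, in the same order. rbm14b, a paralog of the paraspeckle protein RBM14 (human) on chromosome 14 (13600863 to 13612641), was higher at both oxygen levels in both populations. It stood at 2.80, 2.90, 2.52, 1.76 and 3.05 CPM in NBH control, 5.79, 3.89, 3.95, 4.64 and 3.66 CPM in mild and 8.19, 9.12, 10.2, 7.31 and 8.69 CPM in severe hypoxia. In SC fish it stood at 2.23, 2.12, 2.95, 2.67 and 2.45 CPM in control, 4.81, 3.33, 5.68, 5.35 and 3.96 CPM in mild and 6.82, 8.09, 8.29, 7.04 and 4.19 CPM in severe hypoxia.

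No hypoxia fish overlapped the controls for rbm14b, and in NBH no severe fish overlapped the mild fish. The log2 fold changes were 0.74 ± 0.20 and 1.73 ± 0.20 in NBH mild and severe hypoxia (adjusted p = 0.00915 and 4.84e-06). They were 0.89 ± 0.20 and 1.47 ± 0.19 in SC mild and severe hypoxia (adjusted p = 0.00336 and 6.68e-06). rbm26, a partner of nuclear RNA decay, stood at 8.19, 7.85, 13.4, 9.87 and 13.5 CPM in NBH severe hypoxia, against 4.55, 2.72, 4.30, 4.17 and 4.53 CPM in NBH control. It stood at 14.1, 13.04, 13.1, 12.9 and 11.9 CPM in SC severe hypoxia, against 4.38, 4.34, 6.07, 6.38 and 6.89 CPM in SC control. Neither pair overlapped (1.36 ± 0.24 and 1.21 ± 0.23, adjusted p = 0.000675 and 0.000421). rbm26 was also higher in NBH mild hypoxia (1.0 ± 0.24, adjusted p = 0.0048).

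rbm8a, the Y14 subunit of the exon junction complex that marks spliced mRNA, was higher in NBH mild, NBH severe and SC severe hypoxia (0.72 ± 0.14, 0.71 ± 0.14 and 0.55 ± 0.14, adjusted p = 0.000928, 0.00133 and 0.00416). It gave 0.34 ± 0.14 in SC mild hypoxia (adjusted p = 0.103). rbm22, a protein of the catalytic spliceosome, was higher in NBH mild (0.72 ± 0.16, adjusted p = 0.00339) and SC severe hypoxia (0.80 ± 0.16, adjusted p = 0.000707). rbm15 had the largest fold change of any member called in SC severe hypoxia (1.73 ± 0.51, adjusted p = 0.0133), but on 8 to 38 counts per severe fish, against 1 to 3 in SC control.

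Among RBM genes called lower, rbm47, whose mammalian ortholog is a cofactor of apolipoprotein B mRNA editing in liver and gut, stood at 5.51, 7.37, 16.5, 5.34 and 7.38 CPM in NBH mild hypoxia, against 18.3, 15.2, 29.2, 15.2 and 16.7 CPM in NBH control. All but replicate 3 of the mild fish were below the controls (-1.17 ± 0.31, adjusted p = 0.00801). NBH severe hypoxia gave -0.87 ± 0.31 (adjusted p = 0.056). rbm17, a factor of alternative 3′ splice site choice, was lower in SC mild (-0.74 ± 0.19, adjusted p = 0.0103) and SC severe hypoxia (-0.61 ± 0.18, adjusted p = 0.0149), calls not made without TMM factors. rbm48 was lower in NBH severe hypoxia (-0.72 ± 0.24, adjusted p = 0.0406), a call also not made without TMM factors. rbm5 had the highest CPM of the RBM genes and, like rbm25b, was called in none, with ranges of -0.25 to 0.31 and -0.10 to 0.48.

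**Figure D4:**
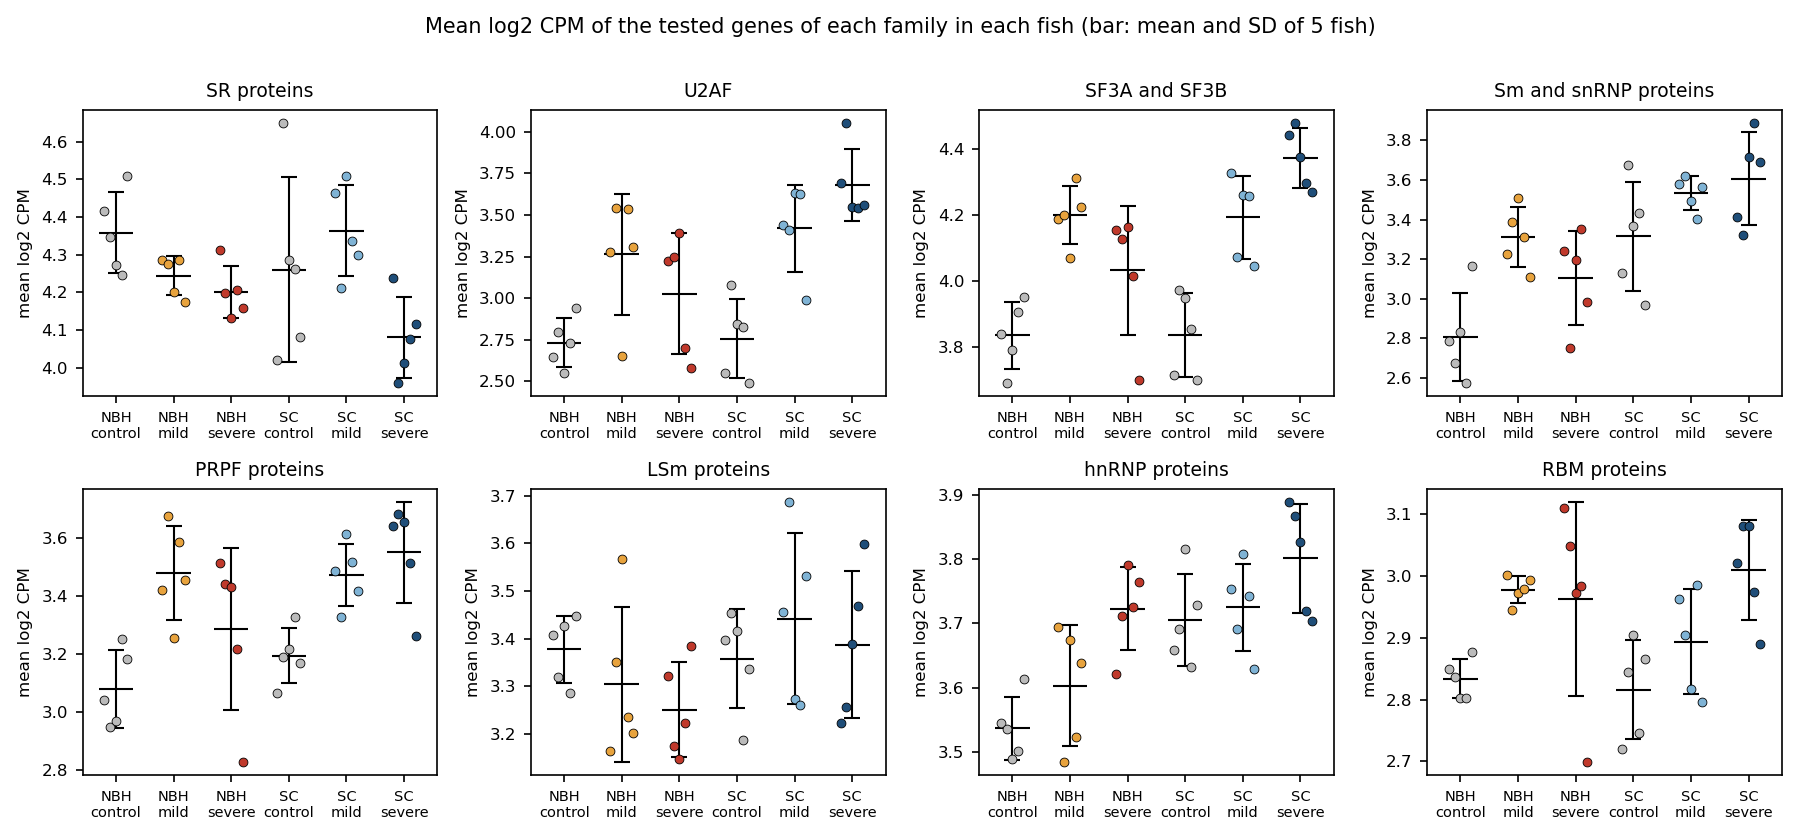
Mean log2 CPM (y axis, each panel on its own range) over the tested genes of a family in each fish, with the mean and SD of the 5 fish of each group as bars. SF3A/SF3B runs from 4.27 to 4.48 in SC severe hypoxia and from 3.70 to 3.97 in SC control, while the SR proteins run from 3.96 to 4.24 in SC severe hypoxia and from 4.02 to 4.65 in SC control, and NBH severe hypoxia replicate 5 is the lowest of its group for U2AF, SF3A/SF3B, PRPF and RBM.

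Severe and mild hypoxia were compared directly to see which members changed between the 2 oxygen levels. In NBH fish 3 members differed (1.95% of all tested genes did) and in SC fish 4 (2.9% of all genes). rbm33a, whose human ortholog works with an RNA demethylase, was higher in severe than in mild hypoxia in both populations. It stood at 6.07, 4.90, 5.79, 4.97 and 4.53 CPM in NBH control, 5.05, 3.13, 3.95, 4.69 and 3.86 CPM in mild and 5.82, 7.91, 6.18, 9.67 and 12.4 CPM in severe hypoxia. In SC fish it stood at 7.77, 4.15, 7.59, 6.90 and 6.43 CPM in control, 4.57, 6.15, 5.81, 4.28 and 4.78 CPM in mild and 10.7, 11.05, 11.5, 8.79 and 12.4 CPM in severe hypoxia.

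For rbm33a all severe fish were above all mild fish in each population, and the severe over mild log2 fold change was 1.0 ± 0.19 in NBH and 1.09 ± 0.19 in SC (adjusted p = 0.00515 and 0.00126). Against control, mild hypoxia gave -0.34 in NBH and -0.37 in SC (adjusted p = 0.22 and 0.213). Severe hypoxia gave 0.66 and 0.73 (adjusted p = 0.0246 and 0.00547). Without NBH severe hypoxia replicate 5 the NBH severe value against control was 0.50 (adjusted p = 0.0618).

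srsf1a was lower in severe than in mild hypoxia in NBH (-0.97 ± 0.22, adjusted p = 0.0193) and in SC (-0.86 ± 0.22, adjusted p = 0.0317). rbm14b was higher in NBH severe than in NBH mild hypoxia (0.99 ± 0.18, adjusted p = 0.00382). The remaining SC calls were hnrnpaba, given above, and srsf2a, at 26.2, 12.5, 17.9, 17.9 and 18.7 CPM in SC severe hypoxia, against 37.2, 25.6, 34.5, 26.02 and 24.6 CPM in SC mild hypoxia (-0.67 ± 0.18, adjusted p = 0.0423). The srsf1a call in SC was lost when any of 7 of the 30 fish was left out (SC mild replicates 1, 3 and 4 and SC severe replicates 1, 2, 3 and 4), and the srsf2a call when any of 11 was (SC control replicate 3, SC mild replicates 1 to 4, SC severe replicates 2 to 5, NBH control replicate 3 and NBH mild replicate 5). When only the 10 fish compared were fitted, 0 NBH members (edgeR's quasi-likelihood test) and 2 SC members passed.

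NBH and SC fish were then set side by side. Of the members higher in mild hypoxia, 8 were called in both populations, which was 34.8% of the 23 NBH calls and 61.5% of the 13 SC calls. Of those higher in severe hypoxia, 10 were called in both, which was 90.9% of the 11 NBH calls and 38.5% of the 26 SC calls. Overlap between populations was not counted over all genes, so whether these shares are particular to the members is not shown. srsf1a was the only member lower in severe hypoxia in both, and 0 members were called in opposite directions. The numbers of NBH and SC calls do not by themselves show a different response, which was tested as the difference between the NBH and the SC fold change.

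In edgeR's quasi-likelihood test that difference passed for 0 of 87 members in mild hypoxia (0% of all genes) and 0 in severe hypoxia (0.00735% of all genes). At an unadjusted p under 0.05 there were 5 and 9 members. The last of the 5 in mild hypoxia, srsf9 (unadjusted p = 0.0448), ranked only 956 among the 13609 genes tested. The number over all genes at that p is not given here, so these counts show no excess of members. DESeq2 and each other setting also called 0. The smallest adjusted p in severe hypoxia was that of sf3a1, with a difference of -0.66 ± 0.21 (adjusted p = 0.236). sf3a1 stood at 26.4, 25.1, 32.6, 28.5 and 21.6 CPM in NBH severe hypoxia, against 29.2, 25.2, 32.7, 26.5 and 27.4 CPM in NBH control. It stood at 40.4, 43.1, 36.5, 30.05 and 36.05 CPM in SC severe hypoxia, against 24.3, 28.3, 26.4, 18.2 and 26.3 CPM in SC control. The SC severe fish were all above the SC controls (0.59 ± 0.15, adjusted p = 0.00408), and the NBH groups overlapped (-0.07 ± 0.15, adjusted p = 0.799). In mild hypoxia the smallest was that of rbm28, with a difference of 0.77 ± 0.24 (adjusted p = 0.323).

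**Figure D5:**
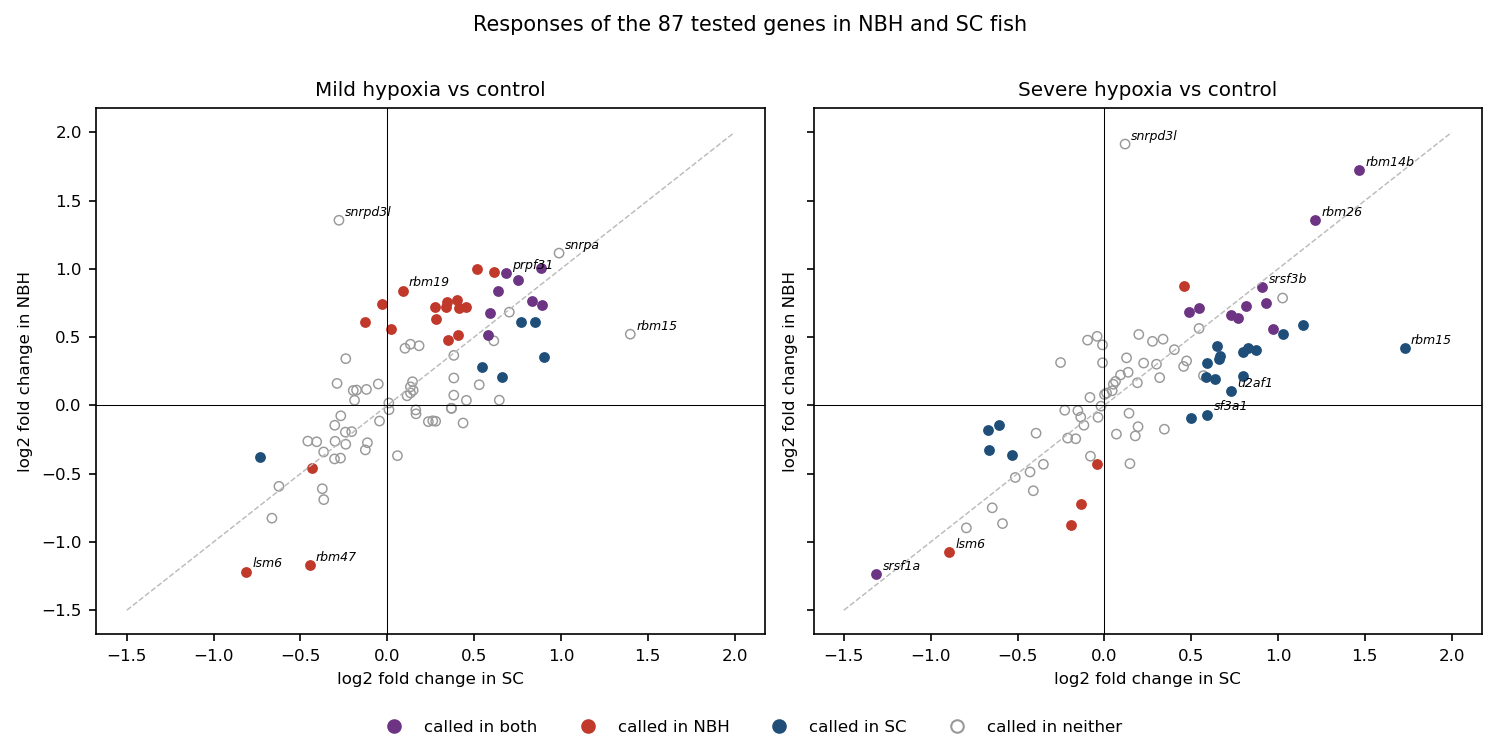
Log2 fold change against control in NBH fish (y axis) and in SC fish (x axis) for the 87 tested genes, in mild (left) and severe hypoxia (right), with the line of equality dashed. Colours give the population in which a gene was called; 8 genes were called higher in both in mild hypoxia, and 10 higher and 1 lower in both in severe hypoxia.

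At the same oxygen level, 10 members differed between NBH and SC fish in severe hypoxia (7.32% of all genes), 1 in mild hypoxia (1.25%) and 1 in control water (1.62%). In severe hypoxia 9 of the 10 were lower in NBH. Of all 13609 genes tested, 531 were higher and 465 lower in NBH there. hnrnpaba, at 17.4, 25.1, 17.3, 21.99 and 21.3 CPM in NBH severe hypoxia, against the SC values given above, did not overlap between populations (-0.84 ± 0.15, adjusted p = 0.00212). prpf19 (-0.64 ± 0.18), rbm22 (-0.55 ± 0.16), snrpd2 (-0.55 ± 0.16), lsm12b (-0.51 ± 0.15), prpf3 (-0.60 ± 0.18), u2af1 (-0.58 ± 0.18) and sf3a1 (-0.47 ± 0.15) were lower in NBH severe fish with overlapping groups, and srsf5b was higher (0.54 ± 0.16, adjusted p = 0.036).

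The number between populations in severe hypoxia rested on single libraries. Without NBH severe hypoxia replicate 5 it was 2 (hnrnpaba and prpf19). Without NBH severe hypoxia replicate 4, SC severe hypoxia replicate 2 or SC severe hypoxia replicate 3 it was 3 each. Without SC severe hypoxia replicate 1 it was 4, and without NBH severe hypoxia replicate 1 or 2 it was 5 each. It was 6 without SC severe hypoxia replicate 4.

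In mild hypoxia rbm19, a nucleolar protein of ribosomal RNA processing, was higher in NBH at 14.6, 13.9, 8.89, 12.4 and 13.9 CPM, against 8.56, 6.91, 4.60, 6.06 and 5.95 CPM in SC, with no overlap (0.98 ± 0.20, adjusted p = 0.00863). snrpd3l, whose symbol places it beside the Sm D3 protein and which was the member that differed in control water, had 0, 0, 7, 0 and 0 counts in the NBH control fish, against 22, 61, 30, 30 and 13 in the SC control fish (edgeR adjusted p = 0.0106). Its CPM was 0 to 1.04 in NBH control, 0.150 to 1.51 in NBH mild and 0.0638 to 1.30 in NBH severe hypoxia. Across the 15 SC fish it was 1.52 to 5.89, and the populations did not overlap at any oxygen level. The edgeR adjusted p was 0.0317 in severe and 0.0685 in mild hypoxia, and no fold change is given because 4 of the 5 NBH control fish had 0 counts.

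Genes of the same pathway outside the symbol rule were counted in the same way. Their list, too, was chosen with earlier results of these data known. Of a list of 73 such genes 68 were tested, and 18, 12, 13 and 17 were higher in NBH mild, NBH severe, SC mild and SC severe hypoxia (26.5%, 17.6%, 19.1% and 25% of the 68, against 11%, 7.45%, 7.25% and 15.2% of all genes). In the same order 3, 2, 2 and 5 were lower (4.41%, 2.94%, 2.94% and 7.35%, against 10%, 6.51%, 6.36% and 13.5% of all genes). The largest class, listed as PRP19 complex and catalytic step factors, had 10, 5, 7 and 11 of 29 higher and 0, 1, 0 and 1 lower. It also held factors of earlier steps, such as sf1, zrsr2 and the SF3B subunit phf5a, which was among those higher in NBH mild hypoxia. In this class eftud2, the GTPase of the U5 snRNP, was higher in all 4 comparisons (0.85, 0.70, 0.86 and 0.84), as was crnkl1 (0.92, 0.95, 0.80 and 0.92). So were cwc22 (0.87, 0.60, 0.49 and 0.56) and sart1 (0.59, 0.50, 0.71 and 0.88). Outside this class, tardbp and ewsr1b were also higher in all 4.

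Among 6 tested kinases of SR proteins, srpk1a was lower in all 4 comparisons, with log2 fold changes of -1.06 ± 0.24 in NBH mild, -0.73 ± 0.24 in NBH severe, -1.24 ± 0.24 for SC mild and -1.46 ± 0.24 for SC severe hypoxia (adjusted p = 0.00336, 0.0407, 0.00128 and 8.54e-05). srpk1b, the paralog of srpk1a, was called in none (-0.15 to 0.04). clk4a was higher in NBH severe hypoxia (0.52 ± 0.15, adjusted p = 0.0232). eif4a3, the helicase that partners rbm8a in the exon junction complex, was higher in NBH mild, SC mild and SC severe hypoxia (0.84, 0.67 and 0.66), while magoh, the other partner, was called in none (-0.63 to -0.37). snrnp70, the U1 protein that meets SR proteins at the 5′ splice site, was called in none (-0.07 to 0.41).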

How the data were processed

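Liver RNA of 30 fish was sequenced as single-end reads from a stranded kit, and 23 bisulfite libraries of the series were not analysed here. The authors trimmed reads with Trimmomatic, mapped them to the killifish genome with STAR and deposited raw read counts per gene from HTSeq-count, whose strand setting is not given in the sources used here, so antisense and overlapping genes and close paralogs are uncertain. All 30 libraries were used, whereas the authors left out 1 severe hypoxia fish of NBH that they did not name. The members and lists were chosen with earlier results of these data known.

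Genes passing the filterByExpr filter given the 6 groups (99.9% of counts) were fitted in R 4.3.3 with edgeR 4.0.16 (TMM factors, legacy quasi-likelihood fit, 1 mean per group, limma 3.58.1) and called at a Benjamini-Hochberg adjusted p under 0.05. SE is the log2 fold change divided by the root of F. Mean log2 CPM used a prior count of 2. DESeq2 1.42.0, other filters, normalizations, samples and a depth covariate were alternatives, and the fit was tested on simulated data. Paralog ratios used a pseudocount of 0.5.

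Genes were named where they were among the 6 called members of largest change per hypoxia comparison with a mean of at least 10 CPM, among the 6 of smallest adjusted p in the other contrasts, in a panel of core factors, or the highest in CPM of a family. The other genes named were chosen after their values were seen, as were the paralog pairs. All 95 members matched the RefSeq table of the MU-UCD_Fhet_4.1 assembly, from which the positions come. Of the panel, u2af2b, hnrnpa0a, hnrnpa1a, hnrnpc, rbm39a and rbm3 met no symbol in the files. No pair of replicates agreed within sampling noise (lowest chi-square per gene 30.5). The fish numbers were not used to pair fish across groups, since the labels give them no meaning. Whether same-numbered fish shared a batch is not known. Each replicate is a separate fish.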

Additional observations from a re-analysis of the deposited data

Results flagged for a closer look

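Single fish stood apart from the other 4 of their group in 11 of the 198 groups of values looked at (named genes and family means), by the ratio of the gap to the range, and chance alone gives about 1 in 20 groups. In NBH mild hypoxia replicate 3, lsm6 was at 45.8 CPM (the others 14.1 to 22.7), rbm47 at 16.45 CPM (the others 5.34 to 7.38), prpf31 at 11.7 CPM (the others 16.4 to 17.9), sf3b3 at 9.24 CPM (the others 15.1 to 15.8) and snrpd3l at 1.51 CPM (the others 0.150 to 0.344). For the first 4 of these genes the fish was nearer to the NBH control fish than the rest of its group was. Without it, 27 members were higher and 8 lower in NBH mild hypoxia, and the shares of all genes in that refit are not given here.

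In NBH control fish, rbm47 was at 29.2 CPM in replicate 3 (the others 15.2 to 18.3), snrpd3l at 1.04 CPM in replicate 3 (the others at 0) and srsf3b at 16.4 CPM in replicate 5 (the others 11.4 to 12.8). In SC control replicate 2, srsf1a was at 10.04 CPM (the others 5.29 to 5.62) and snrpd3l at 5.89 CPM (the others 1.82 to 2.68). In SC severe hypoxia replicate 5, snrpb2 was at 8.68 CPM (the others 11.4 to 12.4).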

How the results depend on the processing

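Of 135 alternative counts of called members, 103 were within 1.5 times the value reported and 32 were not. Of 349 alternatives for named genes, 309 kept the call, 40 lost it and 0 reversed. Without TMM factors the members higher were 41 in NBH mild, 50 in NBH severe, 37 for SC mild and 46 for SC severe hypoxia, those lower were 1 in NBH severe, 0 for SC mild and 1 for SC severe hypoxia, and 3 differed between NBH and SC in control water and 4 in mild hypoxia. With the total count as a covariate 11 were higher and 1 lower in NBH mild, 3 lower in NBH severe and 20 higher in SC mild hypoxia, and 0 and 1 differed between populations in mild and severe hypoxia. DESeq2 called 5 lower in NBH mild and 3 lower in SC mild hypoxia, 5 between NBH severe and mild hypoxia, and 5 between populations in mild hypoxia. Counts thinned to the smallest library gave 3 lower in SC mild hypoxia and 4 between populations in severe hypoxia. Fitting only the groups compared gave 6 higher and 3 lower in NBH severe hypoxia, 0 between severe and mild hypoxia in NBH and 2 in SC, and 1 between populations in severe hypoxia. Without the count filter 2 were lower in NBH severe hypoxia, 2 differed between SC severe and mild hypoxia and 4 between populations in severe hypoxia. A filter without groups left 0 between populations in control water, and the newer quasi-likelihood fit gave 3 in mild hypoxia. The cause of these shifts was not tested. Shares of all genes called are not given for these settings or for the refits below, so such counts do not set the members apart.

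Leaving out 1 fish of the groups compared, or NBH severe hypoxia replicate 5, gave 18 to 27 higher and 2 to 8 lower in NBH mild, 8 to 17 and 1 to 7 in NBH severe, 9 to 19 and 1 to 2 for SC mild and 23 to 29 and 4 to 8 for SC severe hypoxia. It gave 3 to 4 between severe and mild hypoxia in NBH and 2 to 4 in SC, and 1 to 2, 1 to 3 and 2 to 9 between populations in control, mild and severe hypoxia. The interactions stayed at 0 throughout. The paralog ratios that passed kept an unadjusted exact p under 0.05 in each of 10 refits without 1 fish. Where hypoxia and control fish did not overlap, leaving out 1 fish could not raise that p above 0.05, so those refits do not test the result. Among the ratios that passed, only rbm25a/rbm25b in NBH mild hypoxia had overlapping groups. A pseudocount of 1, chosen after seeing the data, changed no call. With the replicate number as a block, 22 members were higher and 3 lower in NBH mild, 11 and 4 in NBH severe, 13 and 1 for SC mild and 26 and 6 for SC severe hypoxia, and 2 differed between populations in mild hypoxia. Same-numbered fish correlated between -0.242 and 0.22. With deviations centred within groups of 5 fish, this cannot exclude a batch shared by number. At the smallest library of 4955114 counts, genes below a few CPM such as snrpd3l and rbm15 rest on few reads.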
